A study of Drosophila melanogaster with 2 samples.

Results

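The 500 strongest binding sites of rib tagged with eGFP were described here, out of 4606 sites found by chromatin immunoprecipitation and sequencing (ChIP-seq) in whole Drosophila melanogaster embryos aged 0 to 24 h. The list of peaks called from both replicates past the threshold on the irreproducible discovery rate (IDR) was sorted by its signal, and the first 500 were kept, which left 4106 other peaks. The signal is the strength that the peak caller gave each peak, pooled over the replicates and without a stated scaling. The 500 were thus chosen by their signal, which ran from 185 to 1732 with a median of 251, against 2.00 to 185 and a median of 88.4 in the other peaks. They held 29.7% of the summed signal of the list.

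All embryos came from a fly strain labelled rib-GFP, in which an insertion that targets rib makes a rib-eGFP fusion protein, and there was 1 group of 2 biological replicates. The precipitation used an antibody to GFP according to the labels' description, although their antibody field names rib. No untreated or control samples were used here, so no background stands beside the values. The files hold no read counts, the depth is unknown, and intervals cover counting of peaks only. Embryos were taken whole, so a site used in few cells and a site weakly bound in many cannot be told apart.

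The protein made by rib (ribbon) sits in the nucleus and has a BTB domain, through which such proteins pair, and a pipsqueak-type DNA-binding domain. It is known for its part in shaping the tubes of the trachea and the salivary gland, whose cells change shape and move as the tubes form. In ChIP-seq, the summit of a peak marks where the precipitated fragments pile up highest, and a transcription start site (TSS) is where a gene's RNA begins. The region just before the TSS, the promoter, is where RNA polymerase and many regulators sit, and in flies many promoters lie back to back and serve a gene on either side.

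The sequence at the strongest summits was mostly poor in G and C. The lines below show the sequence from 50 bases before to 50 bases after the summits of the 8 strongest peaks on the X and on arms 2L, 3L and 3R that overlap no UTR or coding sequence there, on the strand of the nearest gene and from the Release 6 assembly (dm6). Capitals mark unbroken runs of at least 6 A or T. The CG11050 window lies 1025 bp inside the gene, the CG4004 window 5071 bp downstream of a start, the ph-p window 491 bp upstream of one and the others 86 to 137 bp upstream.
CG11050 (chr2L:6612662-6612762, plus strand): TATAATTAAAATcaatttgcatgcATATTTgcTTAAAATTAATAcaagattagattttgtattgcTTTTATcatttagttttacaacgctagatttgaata
CG14100 (chr3L:19590560-19590660, minus strand): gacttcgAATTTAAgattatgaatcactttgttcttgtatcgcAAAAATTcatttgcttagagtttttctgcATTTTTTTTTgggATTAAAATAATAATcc
Tcs5 (chr3L:5139453-5139553, minus strand): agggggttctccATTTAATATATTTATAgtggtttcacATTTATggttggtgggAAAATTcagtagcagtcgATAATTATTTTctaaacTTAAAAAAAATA
ph-p (chrX:2137296-2137396, minus strand): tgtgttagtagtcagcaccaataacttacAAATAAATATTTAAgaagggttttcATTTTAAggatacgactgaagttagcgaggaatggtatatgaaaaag
Art3 (chr3R:15229484-15229584, minus strand): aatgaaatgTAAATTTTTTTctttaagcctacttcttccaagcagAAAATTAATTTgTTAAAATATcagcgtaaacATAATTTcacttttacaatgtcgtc
CenG1A (chr2L:13835418-13835518, plus strand): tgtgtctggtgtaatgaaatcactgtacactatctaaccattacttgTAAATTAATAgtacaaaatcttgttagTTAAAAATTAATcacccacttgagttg
CG5611 (chr3R:27636147-27636247, minus strand): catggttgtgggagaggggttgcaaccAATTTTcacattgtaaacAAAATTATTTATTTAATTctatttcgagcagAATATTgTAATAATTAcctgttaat
CG4004 (chrX:12751338-12751438, plus strand): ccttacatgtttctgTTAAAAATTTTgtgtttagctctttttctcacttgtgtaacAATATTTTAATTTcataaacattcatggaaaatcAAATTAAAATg
Each of these windows held at least 2 such runs, and their GC content lay between 20.8% and 31.7%.

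A second set gives an example, chosen by rank among the remaining windows of the same kind, of each of 4 motifs found more often among the 500 than among the other peaks, as given further on. Stronger windows of the first set carry these motifs too, on one strand or the other. Capitals mark the motif, which is TATAAA near CG32772, TGTTTAC (a forkhead site) in Trl, TAATTA (a homeodomain site) near CG18549 and AAAAAAA in Tlk. A motif match is a description of letters and was not tested as a binding site.
CG32772 (chrX:4910303-4910403, plus strand): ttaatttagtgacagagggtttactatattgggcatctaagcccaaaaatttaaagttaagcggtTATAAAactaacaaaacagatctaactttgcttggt
Trl (chr3L:14759463-14759563, minus strand): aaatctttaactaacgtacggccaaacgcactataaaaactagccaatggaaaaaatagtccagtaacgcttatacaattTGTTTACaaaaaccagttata
CG18549 (chr3R:12449127-12449227, plus strand): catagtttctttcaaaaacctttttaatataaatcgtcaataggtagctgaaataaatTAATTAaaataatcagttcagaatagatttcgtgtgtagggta
Tlk (chrX:3742150-3742250, plus strand): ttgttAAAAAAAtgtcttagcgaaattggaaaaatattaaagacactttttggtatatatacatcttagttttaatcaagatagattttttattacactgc
The last set shows what the GC-rich minority among the 500 looks like, as the 3 strongest windows of the same kind with a GC content of 50% or more. They were chosen after their values were seen, and capitals mark runs of at least 4 G or C.
Eip75B (chr3L:17949286-17949386, minus strand): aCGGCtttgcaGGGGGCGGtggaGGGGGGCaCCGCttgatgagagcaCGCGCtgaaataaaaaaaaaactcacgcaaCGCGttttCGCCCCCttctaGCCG
moody (chrX:2050231-2050331, minus strand): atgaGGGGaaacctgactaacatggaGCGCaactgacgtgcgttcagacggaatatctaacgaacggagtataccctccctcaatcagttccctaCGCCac
fru (chr3R:18437014-18437114, minus strand): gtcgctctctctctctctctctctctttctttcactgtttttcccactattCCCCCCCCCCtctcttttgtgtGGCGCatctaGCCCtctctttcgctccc
The window at Eip75B held 8 such runs and a GC content of 58.4%, while the window at fru opened with a stretch of alternating C and T.

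The strongest site away from rib, in an intron of CG11050, had a signal of 936 in replicate 1 and 681 in replicate 2, a log2 ratio of 0.46. The site at Ugalt, whose product carries UDP-galactose across the Golgi membrane, reached 756 in replicate 1 and 760 in replicate 2. The site at CG14100 had 657 in replicate 1 and 691 in replicate 2, and the site at mRpL41, a mitochondrial ribosomal protein gene, had 612 and 641. The sites at Ugalt, CG14100 and mRpL41 stood at about the same height in both replicates. The strongest site of all, upstream of rib, had 1115 in replicate 1 and 502 in replicate 2, a log2 ratio of 1.15. The site at the internal start of rib had 690 and 335, and that near CG33453, a neighbour of rib, 552 and 287. These 3 sites were thus higher in replicate 1, although the replicates' signals are not on a stated common scale.

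Among ranks 21 to 50, which had signals of 715 to 538, the nearest genes had varied roles. Regulators of transcription and chromatin were Sox14, a SoxC transcription factor (692, summit 245 bp upstream), Adf1, an activator of Adh in flies (689, 782 bp inside), mam, the coactivator of Notch targets (636, in an intron 2146 bp before a start), Eip75B, a nuclear receptor induced by ecdysone (609), and Chro, a chromodomain protein of chromosome interbands (607, 87 bp inside). Psc, a Polycomb group gene, was nearest to a peak 4188 bp away (590), and the peak at rank 46 (573) lay between Arl1, a small GTPase of the Golgi, and brm, the ATPase of the Brahma remodelling complex. Tlk, a kinase with a part in chromatin assembly, had a peak 2303 bp inside the gene (678).

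Genes of metabolism, protein handling and signalling stood beside them at similar strength. They were Gapdh2, a glycolytic enzyme (602, 154 bp upstream), Fkbp14, a prolyl isomerase of the endoplasmic reticulum (628, 106 bp upstream), Elp5, a subunit of the Elongator complex (605), Atat, an acetyltransferase of alpha-tubulin (617, 121 bp upstream), GstE13, a glutathione transferase (573), papi, a Tudor protein of the piRNA pathway (538), norpA, the phospholipase C of vision (635, 1361 bp inside), moody, a receptor of the glial blood-brain barrier (549, 161 bp upstream), and px, a gene of wing vein patterning (641). A peak 5721 bp from eEF1gamma had 610, MFS10, named as a transporter of the major facilitator family, had 598, and rib had a further pair of peaks at 715 and 572. Genes known only by a CG number were CG18549 (713), CG13390 (705), CG9663 (699), CG9147 (690), CG7601 (657), CG1888 (657), CG8320 (656), CG1635 (646) and CG17896 (576). Of the 50 strongest summits, 34 lay within 500 bp of a protein-coding TSS and 6 over 2 kb from one. The nearest start is a matter of position, and no expression was measured.

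Nearly all of the 500 were called in each replicate on its own. Of the 500, 483 (96.6%) overlapped a peak of both replicates' own IDR lists, 7 of replicate 1 alone and 10 of replicate 2 alone, while 1095 (26.7%) of the other peaks overlapped both. The conservative list held all but 2 of them and 75.4% of the other peaks. The 500 were chosen by a signal pooled from these same replicates, so these counts describe them and test nothing. In replicate 1 their signals ran from 60.5 to 1115 with a median of 143, and in replicate 2 from 34.1 to 760 with a median of 117. Ranked within each replicate, 394 of them were among the 500 strongest of replicate 1 and 396 among those of replicate 2, with 303 in both and 13 in neither.

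Across the 497 of the 500 with a region in both replicates' ranked lists, the correlation of log2 signals was 0.70 (Pearson r), with a rank correlation of 0.54 (Spearman rho). In the other peaks these were 0.28 and 0.27 over 4082 peaks. Each group was bounded by a signal pooled from these same replicates, which affects such correlations. The values therefore do not compare the replicates' agreement between the groups. Peaks share their library and are not replicates, so no p is given. Signal was higher in replicate 1 at 353 of the 497 and in replicate 2 at 144. In a few cases neighbouring peaks matched the same replicate region, which holds for 4 of the 500 in replicate 1 and 6 in replicate 2.

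**Figure D1:**
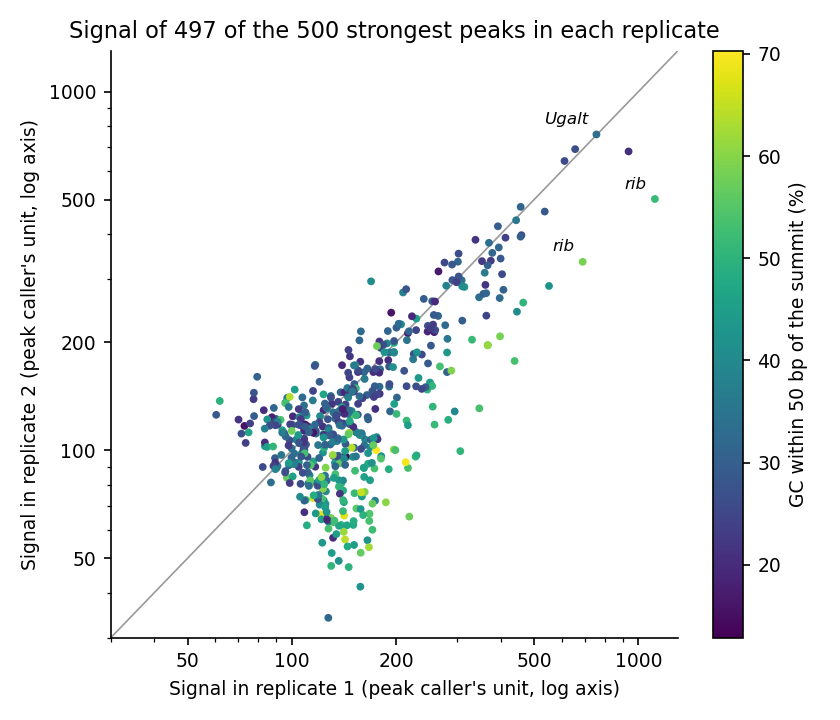
Signal of each of 497 of the 500 strongest peaks in replicate 1 (x axis) and replicate 2 (y axis), both on log axes in the peak caller's unit and coloured by the GC content within 50 bp of the summit, with the grey line at equal signal. GC-poor peaks scatter around the line, as at Ugalt (756 and 760), while most GC-rich peaks and the labelled rib peaks lie to its right.

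Sites of different GC content stood at different relative heights in the replicates. The median log2 ratio of replicate 1 to replicate 2 was 0.05 in the 182 of the 500 with a GC content under 30%, 0.11 in the 131 between 30% and 40%, 0.64 in the 104 between 40% and 50%, 0.85 in 61 of the 64 between 50% and 60%, the other 3 having no region in one of the replicates' ranked lists, and 0.87 in the 19 at 60% or more. The same medians in the other peaks were 0.07, 0.34, 0.59, 0.71 and 0.68. By these medians, GC-rich sites were higher in replicate 1 relative to GC-poor sites, in the 500 and in the other peaks alike. Across the 497 peaks, GC content and the log2 ratio were correlated with Pearson r at 0.52 and Spearman rho at 0.49, against 0.32 and 0.32 in the other peaks. The share of GC-poor windows and the counts of words and motifs are therefore also given from each replicate's own list, and the part of this replicate difference in the pooled ranking was not tested.

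**Figure D2:**
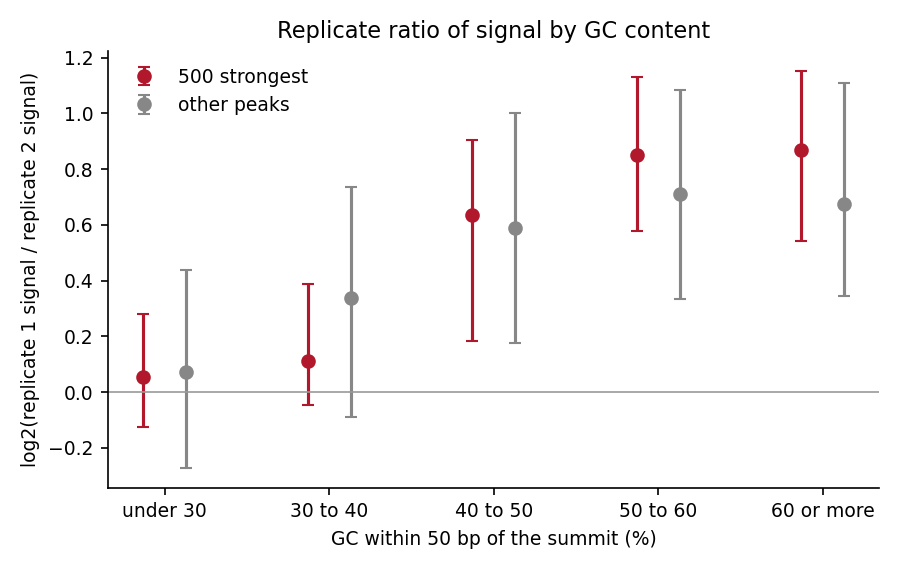
Median log2 ratio of replicate 1 signal to replicate 2 signal (y axis) in 5 bands of GC content (x axis, %), for the 500 strongest peaks (red, left of each pair) and the other peaks (grey), with bars from the first to the third quartile. The median of the 500 strongest peaks climbs with GC content, being 0.05 under 30% and 0.87 at 60% or more.

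The 500 were poorer in G and C than the other peaks. Their median GC content within 50 bp of the summit was 33.7% with quartiles at 26.7% and 44.6%, against 45.5% with quartiles at 37.6% and 52.5% in the other peaks. A GC content under 40% was found in 313 of the 500 (62.6%, 95% exact interval 58.2% to 66.9%) and in 1321 of the 4106 other peaks (32.2%, 30.7% to 33.6%). The odds ratio was 3.53 (95% interval 2.91 to 4.28) and Fisher's exact test, two-sided, gave an adjusted p of 3.63e-38 over 7 tests. At the other end, 16.6% of the 500 and 32.6% of the other peaks had a GC content of 50% or more (odds ratio 0.412, adjusted exact p = 4.55e-14).

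The difference held in each replicate taken alone. The 500 strongest peaks of replicate 2's own list had a median GC content of 32.7%, against 41.6% in its other 1681 peaks, and 73.6% of them were under 40%, against 44.6%. In replicate 1's own list the median was 39.6%, against 45.5% in its other 2582 peaks, and 50.8% were under 40%, against 29.5%. Among peaks found in both replicates' lists, 62.5% of 483 of the 500 and 42.6% of the other 1095 were under 40%. The odds ratios were 3.47, 2.47 and 2.25, with 2.85e-13 as the largest exact p, so the size of the difference moved with the list.

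GC content followed rank through the whole list. The median was 30.7% in the 50 strongest peaks, 31.2% in the next 50, and 31.7%, 36.1%, 35.6% and 39.1% in the next 4 sets of 100. Beyond the 500 it was 41.6% in the 500 peaks that follow, 45.0% in the 1000 after those and 46.5% in the remaining 2606. The share of windows under 40% was 78.0% in the 50 strongest and 51% in the weakest 100 of the 500, with 45.8% in the 500 peaks that follow. The composition thus showed no step at the limit of 500 peaks.

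The low GC content of the strongest promoter peaks was narrow and centred on the summit. At promoters, the mean GC content of the 295 strongest peaks was 33.7% within 20 bp of the summit and 43.8% at 480 to 500 bp from it, a difference of -10.1 points. The 2100 other promoter peaks had 44.6% at the summit and 42.7% at that distance, a difference of 1.90 points. Away from promoters, the 205 strongest had 38.6% at the summit and 39.9% at that distance, a difference of only -1.27 points. The 2006 others had 44.2% at the summit and 38.8% at that distance. At 100 to 120 bp on either side of the summit, the 500 had 44.4% and 43.5% at promoters and 46.4% and 44.6% away from them. The mean GC content of the 500 was thus lower at the summit than at 100 to 120 bp both at promoters and away from them, by more at promoters.

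**Figure D3:**
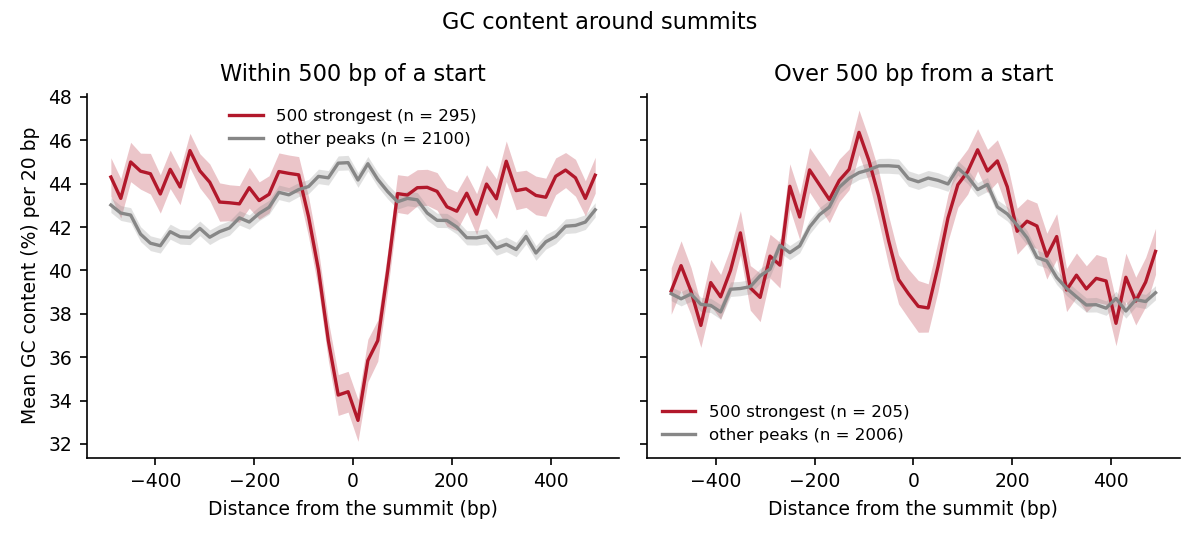
Mean GC content in bins of 20 bp (y axis, %) by distance from the summit (x axis, bp) for the strongest peaks (red) and the other peaks (grey), within 500 bp of a protein-coding start on the left and farther away on the right, with shading of 1 SE across peaks. The strongest promoter peaks dip to 33.7% at the summit, against 44.6% in the other promoter peaks.

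Short words differed in the same direction. Of 2080 words of 6 bases, each counted with its reverse complement, 142 (6.83%) were found in a larger share of the 500 and 91 (4.38%) in a smaller share, at an adjusted p under 0.05 by Fisher's exact test. All 36 words of A and T alone were among the 142, and 88 more held a single G or C. Of the 91, 88 held 3 or more G or C. The smallest p-values among words more common in the 500 belonged to ATTTAA (28.8% of the 500 and 12.8% of the other peaks, adjusted exact p = 3.02e-15), AAATAT (34.2% and 17.0%), TTAAAA (30% and 14%) and TAAATA (29.6% and 14%). They were followed by ATATTA (20.4% and 8.06%), AATATA (24% and 10.5%), TATTAA (20.2% and 8.28%), ATTAAA (26.8% and 13.2%), ATATAA (19.2% and 7.84%) and ATTTTA (27.2% and 14.2%).

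Among words less common in the 500, CGCGGC was in 0.6% of the 500 and 4.26% of the other peaks (adjusted exact p = 1.65e-04), and CAGCGG in 2% and 6.58%. AACGTC was in 0 of the 500 and in 108 (2.63%) of the other peaks. The 10 with the smallest p also held CTGGCA (2.4% and 6.87%), AGGCGA (0.8% and 4.02%), CCTCCG (0.2% and 2.70%), CGCTGC (4% and 8.91%), GGAGCA (1.2% and 4.58%), GCTGCC (3.6% and 8.23%) and AGCGAC (1.4% and 4.85%). Unbroken runs of at least 10 A or T were found in 246 of the 500 (49.2%) and in 27.4% of the other peaks. These counts of words depended on the peaks compared, with 145 words called in replicate 2's own list, 62 in replicate 1's, 38 among peaks of both lists and 10 among windows under 40% GC.

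Of 23 motifs searched, 7 (30.4%) differed between the 500 and the other peaks in the same test. The TATA box letters TATAAA, which mark one type of core promoter, were found in 21.4% of the 500 and 10.5% of the other peaks (odds ratio 2.31, adjusted exact p = 1.09e-09). The A tract, a run of at least 7 A, which stiffens DNA, was in 14.2% and 9.50% (odds ratio 1.58, adjusted exact p = 0.00883). The forkhead site, TGTTTAC or its form with A as the second letter, was in 9.6% and 5.65% (odds ratio 1.77, adjusted exact p = 0.00763) and the homeodomain site, TAATTA, in 8.8% and 5.38% (odds ratio 1.70, adjusted exact p = 0.0118). All of these are rich in A and T.

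Less common among the 500 were the E-box CAGCTG, in 2.2% of the 500 and 5.6% of the other peaks (odds ratio 0.379, adjusted exact p = 0.00688), the repeat CACACA, in 10.2% and 15.3% (odds ratio 0.63, adjusted exact p = 0.00948), and GAGAG, the letters bound by GAGA factor, in 14.6% and 19.8% (odds ratio 0.692, adjusted exact p = 0.0155). The remaining 16 motifs did not pass, among them DRE, in 1% of the 500 and 1.90% of the other peaks, the core letters of BEAF, in 15.2% and 17.0%, the GATA site, in 13.4% and 12.3%, and the Zelda site, in 0.2% and 0.536%. Among windows with a GC content under 40%, 313 of the 500 and 1321 others, Fisher's exact test called 0 of the 23 motifs, and 5 had an unadjusted p under 0.05. There TATAAA was in 32.3% and 23.9% (odds ratio 1.52, adjusted exact p = 0.0703). Among peaks of both replicates' lists 2 motifs were called, the TATA box and CAGCTG, in replicate 1's own list 2, the TATA box and the forkhead site, and in replicate 2's own list 7, which were both of these, CAGCTG, the CA repeat, the GAGA letters, the GC box and Ohler Motif 7. The A tract and the homeodomain site passed neither in a replicate's own list nor among peaks of both lists, with adjusted exact p-values of 0.0743 to 0.305 for the A tract and 0.121 to 0.305 for the homeodomain site. At promoters alone 8 motifs passed. There the core letters of BEAF were in 14.9% of the 500 and 21.5% of the other peaks (odds ratio 0.639, adjusted exact p = 0.0313), the initiator was in 7.46% and 12.6% (odds ratio 0.558, adjusted exact p = 0.0313), and the CA repeat did not pass (adjusted exact p = 0.159). Among peaks narrower than 380 bp, 389 of the 500 and 99 others, Fisher's exact test called 0 motifs and 0 words, and 3 motifs and 122 words had an unadjusted p under 0.05.

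The summits of the 500 lay a little more often at promoters, and at promoters they lay farther upstream. Within 500 bp of a protein-coding TSS were 295 of the 500 (59.0%, 95% exact interval 54.5% to 63.3%) and 2100 of the 4106 other peaks (51.1%, 49.6% to 52.7%), an odds ratio of 1.37 with an adjusted p of 0.00105. Within 200 bp were 45.6% and 41.1%, which did not pass (odds ratio 1.20, interval 0.995 to 1.45, adjusted exact p = 0.0609). The promoter share did not differ past the threshold among peaks of both replicates' lists, at 58.8% and 56.3% (exact p = 0.378), nor in replicate 2's list (odds ratio 1.20, exact p = 0.0817) or replicate 1's list (odds ratio 1.20, exact p = 0.0696).

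At promoters, 236 of the 295 strongest summits (80.0%) lay upstream of the nearest start, as against 1180 of 2100 (56.2%), an odds ratio of 3.12 (interval 2.31 to 4.20) with an adjusted p of 2.31e-15. Their median position was -117 bp from the start, against -19 bp. Between 50 and 200 bp upstream lay 161 (54.6%) of the 295 and 603 (28.7%) of the 2100. The bin that held the most was 100 to 150 bp upstream for the 500, with 23.7%, and 0 to 50 bp upstream for the other peaks, with 16.4%. Of the 500, 389 (77.8%) were narrower than 380 bp, the commonest width, against 99 (2.41%) of the other peaks. Among those narrower peaks, a comparison chosen after the data were seen, the upstream shares were 80.0% and 73.9% (odds ratio 1.41, exact p = 0.428).

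**Figure D4:**
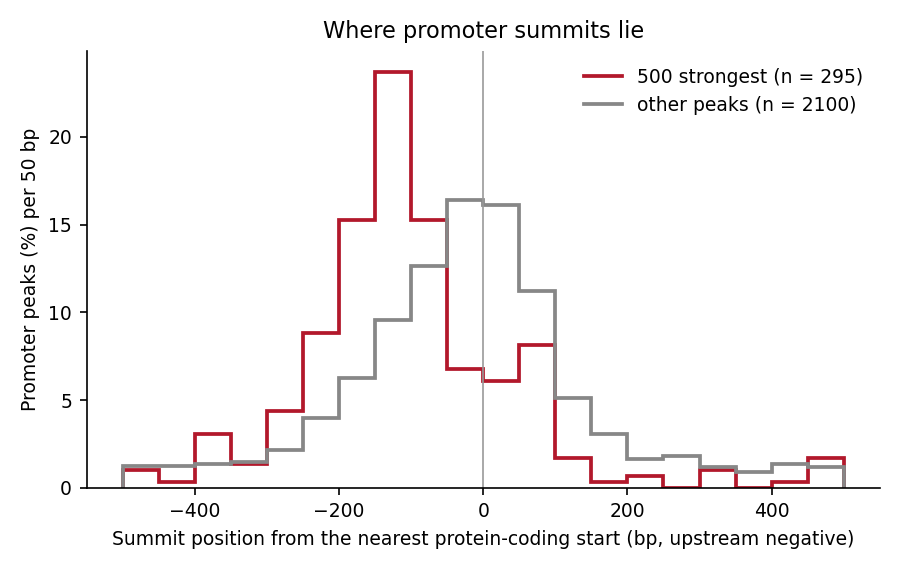
Share of promoter peaks (y axis, % per 50 bp) by position of the summit from the nearest protein-coding start (x axis, bp, upstream negative) for the 295 strongest promoter peaks (red) and the 2100 other promoter peaks (grey). The strongest gather 100 to 150 bp upstream, where 23.7% of them lie, and the others around the start itself.

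Low GC content also held in a narrower range of positions, 50 to 200 bp upstream. Summits were spread differently within it, with 45 of the 500 and 265 of the others in the bin 50 to 100 bp upstream. Among summits 50 to 200 bp upstream of a start, a comparison chosen after the data were seen, the median was 28.7% in 161 of the 500 and 38.6% in 603 others, and 77.6% and 52.2% were under 40% (odds ratio 3.17, Fisher's exact p = 3.66e-09). Among narrower peaks the odds ratio was 2.84 (exact p = 5.8e-06). At promoters as a whole it was 4.76, and away from them 2.42.

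Divergent promoters have starts of genes on opposite strands within 500 bp of the summit. The minus-strand start lies to the left of the plus-strand start, or overlaps it by at most 500 bp. Such promoters held 100 of the 295 strongest promoter summits (33.9%) and 488 of the 2100 others (23.2%), an odds ratio of 1.69 with an adjusted p of 1.69e-04. Pairs among the strongest were Tcs5 with CHMP2B, Art3 with mRpS10, CenG1A with mRpS23, CG5611 with Mtl, Chro with Ssl1, Atat with Shc and Arl1 with brm. At such a site the peak cannot be given to either gene. The difference was not past the threshold for the 250 strongest peaks (odds ratio 1.19, exact p = 0.336), among peaks of both replicates' lists (33.1% and 29.8%, odds ratio 1.16, exact p = 0.352) or in replicate 2's list (odds ratio 1.33, exact p = 0.0514).

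Intergenic sequence held 185 summits of the 500 (37.0%) and 26.4% of the other peaks, an odds ratio of 1.64. Fewer lay in 5′ UTRs (12.2% and 21.3%, odds ratio 0.514), and a single one, inside Cib2, lay in a coding exon (0.2% and 3.56%, odds ratio 0.0544). Fisher's exact test gave an adjusted p of 2.57e-06 for each of these over 6 classes. Introns held 228 summits of the 500 (45.6%) and 44.5% of the others. The coding exon difference did not pass among peaks of both replicates' lists. Over 2 kb from any protein-coding TSS lay 94 of the 500 (18.8%) and 27.4% of the other peaks.

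No chromosome arm passed the test. Fisher's exact test called 0 of 6 arms, and the X, with 93 of the 500 (18.6%) and 14.3% of the others, was the 1 arm with an unadjusted p under 0.05 (exact p = 0.0134, adjusted exact p = 0.0805). Chromosome 4 held 0 of the 500 and 16 of the others. Another summit of the whole list lay within 1 kb of 129 of the 500 (25.8%) and of 36.2% of the other peaks, an odds ratio of 0.613 with an adjusted p of 5.13e-06. In replicate 1's list that difference did not pass (odds ratio 0.819, exact p = 0.0701).

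Of 13968 protein-coding genes, 2547 had a summit of the list within 500 bp of a start and are called bound here, and 406 of those (15.9%) carried 1 of the 500. A single peak beside mod(mdg4) gave 10 of the 406, the adjacent pre-mod(mdg4) genes. The lists of genes below were chosen with results known and were not tested, so each count stands beside the 15.9% of all bound genes. They are selections that leave out genes of the same kinds, so each count holds for the listed genes only. A peak within 500 bp of starts of several genes counts for each of those genes.

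Lists of genes for making proteins are given by their counts, which were not tested. Of the cytoplasmic ribosomal protein genes, 49 of 93 were bound and 5 of those carried 1 of the 500 (10.2%), namely RpL7, RpL34b, RpL32, RpL23A and RpS27. RpL7 had 176 in replicate 1 and 195 in replicate 2, and RpS27 had 61.9 and 137. Of the mitochondrial ribosomal protein genes, 19 of 75 were bound and 6 of those carried 1 of the 500 (31.6%), led by mRpL41, mRpS10, mRpS23 and mRpL23. The peaks at mRpS10, mRpS23, mRpL23, mRpL20 and mRpL24 also lie within 500 bp of a start of another gene. So do those at RpL7, RpL34b, RpL32 and RpS27 among the cytoplasmic ones. A median bound gene of the cytoplasmic list had a signal of 114.7 and of the mitochondrial list 100.4, against 106.2 over all bound genes.

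Of 17 bound translation factor genes, 4 carried 1 of the 500 (23.5%). These were eIF6, which keeps large ribosomal subunits free (444 in replicate 1 and 438 in replicate 2), pAbp, the poly(A)-binding protein (172 and 108), eIF3h (171 and 60.03) and eEF1gamma (88.3 and 102). Of 8 bound aminoacyl-tRNA synthetase genes, which charge tRNAs with amino acids, 3 did (37.5%), HisRS, LeuRS-m and GluProRS. Their peaks are shared with Bx, Dhc64C and AP-1sigma, in that order. The list missed beta-PheRS by the form of its symbol, and that gene, noticed after its values were seen, had a signal of 283. Of the RNA polymerase subunits 1 of 7 did, Polr2B, and of the Mediator subunits 2 of 12, MED27 and MED6. None of the 3 bound TAF genes did.

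Enzymes of sugar metabolism were among the strong sites. Of 7 bound glycolytic genes 3 carried 1 of the 500 (42.9%). Gapdh2 had 364 in replicate 1 and 237 in replicate 2, Eno, the enolase, 173 and 143, and Hex-A, a hexokinase, 137 and 117. Of 9 bound genes for nucleotide-sugar transport and glycosylation 4 did (44.4%). Beside Ugalt these were Alg3, a mannosyltransferase of the endoplasmic reticulum (102 in replicate 1 and 148 in replicate 2), Stt3A, the catalytic subunit of oligosaccharyltransferase (128 and 115.3), and senju (171 and 60.03), whose peak is the one that eIF3h shares. In oxidative phosphorylation 2 of 16 did, ND-ASHI and ATPsynF, and among proteasome and vacuolar ATPase genes 0 of 9 each.

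The lists of chromatin architecture genes and of BTB factors, the family of rib itself, stood above the 15.9% of all bound genes, on small counts. Of 8 bound genes for insulator and GAGA proteins 4 carried 1 of the 500 (50%). Chro had 309 in replicate 1 and 298 in replicate 2, Trl, which encodes GAGA factor, 148 and 125 at its start, Cp190, an insulator cofactor, 138 and 75.7, and psq, which shares the DNA-binding domain type of rib, 123.0 and 78.0. Of 13 bound genes on the BTB list 6 did (46.2%), which are rib, jim, Trl, lola, Cp190 and psq, so 3 genes count in both lists. The BTB list is inexact, as jim is a zinc finger gene without a BTB domain. It also left out BtbVII, which carried 1 of the 500 (signal 197). All of the named genes had more signal in replicate 1. Of the Polycomb and Trithorax groups 2 of 11 did, ph-p and brm.

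Genes tied to the trachea and the salivary gland, the organs rib is known for, gave small counts on either side of the 15.9% of all bound genes. Of 16 bound genes for tracheal regulators and branching 1 carried 1 of the 500 (6.25%), caps, a cell-surface protein, with 465 in replicate 1 and 258 in replicate 2. Of 7 bound salivary gland regulators 2 did (28.6%), rib and fkh, the forkhead factor of that gland (125 and 89.5). Of 14 bound genes on a list of 29 for the cytoskeleton and apical membrane 1 did, betaTub56D at rank 497. Cytoskeleton genes outside that list also carried 1 of the 500, among them Arp3 (rank 272), Actn (296), Dhc64C (297) and shot (423). Some of these peaks are shared with another gene. Among listed genes, none of the 18 bound ones of the EGF receptor, Notch, Wingless and Dpp pathways did, and none of the 9 of Hippo, insulin, TOR and Myc growth. The same held for the 5 Hox and segmentation genes and the 7 Rab genes. The pathway list is incomplete, and gro, a corepressor of Notch and Wingless targets outside it, carried 1 of the 500 (signal 188). The Notch coactivator gene mam had 3 of the 500 within 2 kb of the gene, none of them within 500 bp of a start. The growth list is incomplete too. Genes of the TOR pathway outside it did carry 1 of the 500, among them REPTOR (signal 440), Lamtor3 (415), Sesn (365) and scyl (197). The peak at Lamtor3 is shared with fws and that at Sesn with CG46429. Genes named here from outside a list were picked because they carried 1 of the 500. They give no share to set beside the 15.9%.

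Among listed ecdysone genes, whose hormone times moulting, 3 of 13 bound ones carried 1 of the 500 (23.1%). These were E23, a transporter (159 in replicate 1 and 111 in replicate 2), usp, the partner of the ecdysone receptor (167 and 63.5), and Eip75B (159 and 76.3). The usp peak is shared with Actn and CG4313. This list is incomplete, and the ecdysone-induced genes Sox14 (signal 692) and Eip63F-1 (247) carried 1 of the 500 without counting in it. Nuclear pore genes had 2 of 7, Nup358 and Nup37, chaperones 1 of 6, Hsp27, and neuronal genes 1 of 2, elav. None of the 2 bound chemosensory receptor genes and the 1 bound cuticle protein gene did. Genes known only by a CG number stood close to the background, at 125 of 707 (17.7%).

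**Figure D5:**
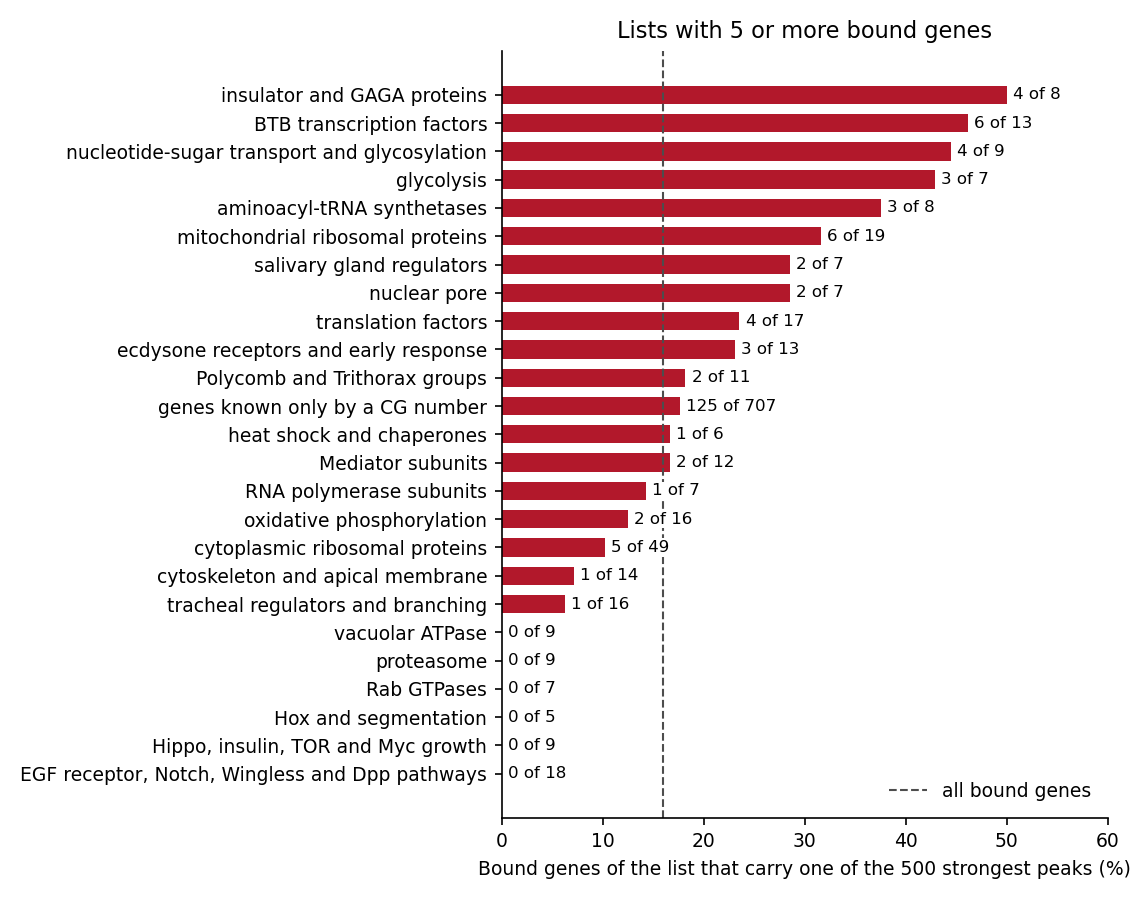
Share of the bound genes in each list that carry 1 of the 500 strongest peaks (x axis, %), where at least 5 genes were bound, with counts beside the bars and a dashed line at 15.9%, the share over all bound genes. Insulator and GAGA protein genes stand at 50% (4 of 8) and cytoplasmic ribosomal protein genes at 10.2% (5 of 49).

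Some genes held several of the 500. Within 2 kb of the gene, rib had 7, Eip75B 6, Tlk 5, CHES-1-like and sbb 4 each, and mam, ftz-f1, fru, Nup358, HmgD and HmgZ 3 each, where the overlapping HmgD and HmgZ, genes for HMG-box proteins, share theirs. All 6 at Eip75B were higher in replicate 1, with log2 ratios of 0.63 to 1.62 and GC contents of 42.6% to 65.3%. The strongest of them had 399 in replicate 1 and 208 in replicate 2. All 3 at fru, which encodes sex-specific BTB factors of the nervous system, were also higher in replicate 1 (log2 ratios of 1.03 to 1.41), as were the 3 at ftz-f1, a nuclear receptor gene (0.59 to 1.42), and the 5 at Tlk (0.07 to 1.47).

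At CHES-1-like, which encodes a forkhead-type factor, GC contents were low, 19.8% to 34.7%, and 3 of the 4 were higher in replicate 1 (log2 ratios of -0.01 to 0.65). Of the 4 at sbb, a gene of nuclear zinc finger proteins, 3 were. The 3 at Nup358 all lay within 500 bp of a protein-coding start, but only that of 248 was near the start of Nup358, 31 bp upstream. The strongest (474) lay 74 bp upstream of CG11857, and the weakest is the peak that RpS27 and Nup37 share. Within 20 kb of rib lay 11 of the 500, with signals of 214 to 1732, GC contents of 32.7% to 61.4% and a median log2 ratio of 0.90, and 9 of them were higher in replicate 1. The insertion targets rib, and signal from a copy that it carries and from the resident copy cannot be told apart. Without the peaks within 20 kb of rib, the share of windows under 40% GC had an odds ratio of 3.66.

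The limit of 500 fell among peaks of nearly equal signal. Just inside were the peaks near Pyroxd1 (185.8), TH1 (185.7) and CG2004 (185.3), and just outside those near mod(mdg4) (185.0), 14-3-3epsilon (184.8) and CG33169 (184.6). The 3 inside had GC contents of 23.8%, 23.8% and 26.7% and all lay at divergent promoters, while the 3 outside had 48.5%, 56.4% and 47.5%. So few peaks do not stand for their neighbours. The median GC content was 39.1% in ranks 401 to 500 and 41.6% in ranks 501 to 1000. Of promoter summits there, 34.4% and 30.8% were at divergent promoters.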

How the data were processed

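The deposited peak lists hold regions on dm6, called by the authors for each replicate and for both together, with a signal and a score; per the file headers and the labels, the deposited signal is peak strength as the peak caller scales it. The deposited score is a whole number up to 1000 scaled from the IDR, where 830 marks an IDR of 0.01 and a higher score means a lower IDR. The aligner and the peak caller are not named in the labels or headers used here. Positions count from 1.

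Peaks were sorted by signal and the first 500 set against the other 4106 with Fisher's exact test, two-sided, with Benjamini-Hochberg adjustment per family at a threshold of 0.05. Odds ratios with an empty cell had 0.5 added to each cell, and the test takes peaks as independent although peaks cluster. Starts came from Ensembl release 115 (BDGP6.54) and sequence from the Release 6 assembly, within 50 bp of each summit on both strands. Replicate values are those of the strongest overlapping region, by at least 1 bp, in each replicate's ranked list. A gene with a summit up to 500 bp from any of its starts was called bound. Steps were tested on simulated data. Python 3.11.15, numpy 2.4.6, scipy 1.17.1, pandas 2.3.3 and matplotlib 3.10.9 were used.

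The members, gene lists, motifs and tests were chosen with earlier results of these data known. Named genes are mainly those nearest to the 50 strongest peaks, those next to the limit and up to 4 of each list. Genes with at least 3 of the 500 and rib were named too. More than 4 were named from the ribosomal protein and BTB lists. Genes sharing a named peak, Cib2 and genes outside the lists, such as BtbVII, beta-PheRS, Arp3 and REPTOR, were added after their values were seen. Named words are the 10 with the smallest p in each direction. Beside those spelled out with the results, the motifs were the DRE (TATCGATA), the BEAF core (CGATA, which lies inside the DRE), the Motif 1 core (GGTCACAC), Ohler Motif 6 and Motif 7, the E-box CACGTG, the E-box CATATG, the Zelda site CAGGTAG, the initiator (TCAGT, then C or T), the GC box GGGCGG, the GATA site (GATAA after A or T), the AP-1 site (TGA, then C or G, then TCA), the CRE TGACGT, the STAT site TTCNNNGAA, the nuclear receptor site AGGTCA and the SuH site (GTG, then A or G, then GAA). Motifs may overlap one another and the words of 6 bases. Alternatives were 250 or 1000 peaks, the conservative list, each replicate's own list, peaks in both, peaks away from rib, the strongest peak of each run of neighbours, and other windows and starts.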

Additional observations from a re-analysis of the deposited data

Results flagged for a closer look

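In the ranked list of the series, 32 regions past the score threshold of 830 had a signal as high as that of the 500 strongest peaks and were outside the thresholded list, 18 of them on arm 3R, 13 on 2L and 1 on 2R. They are part of 172 such regions of any signal. They hold signal outside the peaks compared above and were not analysed here.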

How the results depend on the processing

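Depth is unknown, so what it limits could not be measured. With a replicate left out, the other replicate's own list was used. The differences in GC content kept their direction and their side of the threshold under every alternative run, with odds ratios of 2.25 to 4.76 for windows under 40% and 0.314 to 0.635 for windows of 50% or more. No alternative turned any called direction round. Settings are the peaks or windows used, and the cause of each shift was not tested. The promoter share within 500 bp had an odds ratio of 1.11 among peaks in both replicates' lists and 1.20 with either replicate left out. Within 200 bp, 1000 strongest peaks gave 1.37 and peaks away from rib 1.23, both now past the threshold. Upstream position gave 1.41 among peaks narrower than 380 bp. Divergent promoters gave 1.19 for 250 peaks, 1.16 for peaks in both lists, 1.28 for narrower peaks and 1.33 to 1.45 with a replicate left out. Neighbours within 1 kb gave 0.578 to 0.819 with a replicate left out. Motifs called numbered 2 in both lists, 2 to 7 with a replicate left out, 0 away from promoters (4 at an unadjusted p under 0.05), and, in comparisons chosen after the data were seen, 1 at summits 50 to 200 bp upstream, 0 under 40% GC and 0 among narrower peaks (3 unadjusted). Words of 6 bases called numbered 135 for 250 peaks, 38 in both lists, 62 to 145 with a replicate left out, 4 away from promoters, 19 at summits 50 to 200 bp upstream, 10 under 40% GC and 0 among narrower peaks (122 unadjusted). Bound genes with 1 of the 500 made up 21.0% to 27.5% with a replicate left out.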
